A study of Rattus norvegicus with 12 samples.

Results

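The comparison described here sets 3 whole-lung RNA libraries of rats kept at simulated high altitude for 2 weeks (group H) against 3 libraries of rats kept at laboratory altitude (group N), 6 of the 12 libraries of the study. The members were chosen by the group letter in the sample titles and not by any measured value. All rats were adults of the strain labelled SD. N rats lived at 400 m in ordinary air, and H rats stayed all day in a hypobaric chamber at 405 mmHg, which stands for about 5000 m, with no reoxygenation. Rats of the remaining groups, C3 and I3, shared the chamber conditions of H and were given gas with 42% oxygen for 3 h of each day, in a continuous period in C3 and intermittently in I3, with 3 libraries in each group. They enter here through a shared estimate of the spread and as values set beside those of H.

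A hypobaric chamber lowers the pressure of the air and with it the oxygen that reaches the lung. In the lung, low oxygen constricts the small pulmonary arteries, and when it persists their walls thicken and the pressure in the pulmonary circulation rises, a condition studied as high-altitude pulmonary hypertension. Cells sense low oxygen largely through hypoxia-inducible transcription factors, which are stabilised when oxygen falls and raise the transcription of genes for glycolysis, red cell formation, vessel growth and vascular tone. Whole lung mixes epithelium, endothelium, smooth muscle, immune cells and blood, so in these bulk samples fewer cells of a type and less RNA per cell cannot be told apart.

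The deposited table listed 17254 rat Ensembl transcripts with 1 value for each library. No unit is stated, and the values are read here as FPKM, in which the fragments of a transcript are divided by its length and by the total mapped in that library. The table does not pair transcripts with genes, and none of the 47357 rat genes of the reference table (0 matches) carried a rat Ensembl identifier. Transcripts are therefore described by identifier, level and change, no gene or pathway is named, and the tissue label could not be checked against lung marker genes. For the same reason only 2 identifiers are printed for each direction, and other transcripts are described without theirs. Whether the 3 libraries of a group came from 3 rats is not stated, so the p-values cover only the spread among the libraries, and that spread may be technical.

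The 6 libraries did not fall into compact groups. The first principal component of log2(FPKM + 1) in these libraries took up 27.4% of the variance. N replicate 2 was at 50.1 on it and N replicate 3 at 30.9. N replicate 1 was at -3.40, nearer to the H libraries, which lay at -30.7, -14.6 and -32.3. The second component, with 19.9% of the variance, set N replicate 1 at -46.0 and H replicate 3 at 36.3. The median absolute difference of a transcript between 2 libraries was 0.21 to 0.30 on the log2 scale within N, 0.23 to 0.24 within H and 0.22 to 0.35 between the groups. The distances between groups thus overlapped those within groups. For transcripts described singly below, the values of each H and N library are given. For the other called transcripts only summaries are given, though many of the calls depended on single libraries.

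**Figure D1:**
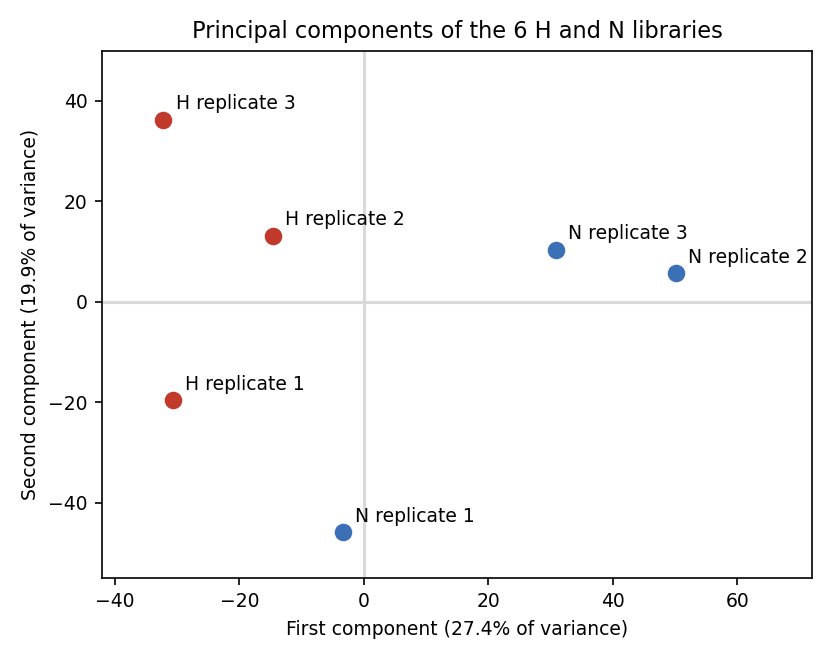
The first (x axis) and second (y axis) principal components of log2(FPKM + 1) over 15435 transcripts in the 6 libraries, H in red and N in blue. N replicates 2 and 3 lie to the right at 50.1 and 30.9, while N replicate 1 lies at -3.40 on the first component and at -46.0 on the second.

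No library-wide measure passed a test between H and N. The number of transcripts listed at exactly 0 was 593, 543 and 570 in the N libraries and 543, 501 and 517 in the H libraries. The highest H value equalled the lowest N value, and the difference of -48.3 had p = 0.2 in an exact two-sided permutation test (adjusted p = 0.7 over 7 library measures). The 100 most abundant transcripts held 23.8%, 23.3% and 22.2% of the summed values in N and 22.6%, 24.1% and 23.9% in H, a difference of 0.465 percentage points with an exact permutation p of 0.5 (adjusted p = 0.8). The number of transcripts at 1 FPKM or more was 14242 ± 114 in the N libraries and 14215 ± 144 in the H libraries (SD, n = 3), with an exact permutation p of 0.8 (adjusted p = 0.8). With 3 libraries against 3, this test cannot give a p below 0.1.

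A small set of transcripts differed between hypoxic and normoxic lungs, most of them by 2-fold or more. Of the 15435 transcripts that reached 1 FPKM in at least 3 of the 12 libraries, 34 were higher and 18 were lower in H at an adjusted p below 0.05 in limma, a linear model with a moderated estimate of the spread. These calls were 0.337% of all transcripts tested, 0.22% in the upward and 0.117% in the downward direction. The 34 that rose had a median log2 change of 1.15, from 0.73 to 3.22, and 26 of them exceeded 1. The 18 that fell had a median of -1.57, and 13 of them fell by more than 1. Falls above 2 on the log2(FPKM + 1) scale numbered 7 and rises above 2 numbered 2. This scale understates ratios at low FPKM, in both directions. The whole 95% interval of the change lay beyond 1 for 10 of those that fell and for 6 of those that rose. Each of the 52 had no overlap between the libraries of H and N, as had 15.1% of all transcripts tested. The 52 were chosen in these same libraries for a change large against its spread, which itself makes overlap unlikely and a gap likely. The distance between the nearest H and N libraries was at least 0.50 on the log2 scale, with a median of 0.81 among those that rose and 1.28 among those that fell.

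The transcripts that rose had a mean in N between 0.0682 and 165 FPKM with a median of 9.66. In H their median was 20.7 FPKM and their highest mean was 364 FPKM. Those that fell had means in N between 2.46 and 94.0 FPKM, with a median of 15.1, and in H between 0 and 12.2 FPKM, with a median of 4.08. In H 4 of the 18 had a mean under 1 FPKM, and in N 5 of the 34 did.

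**Figure D2:**
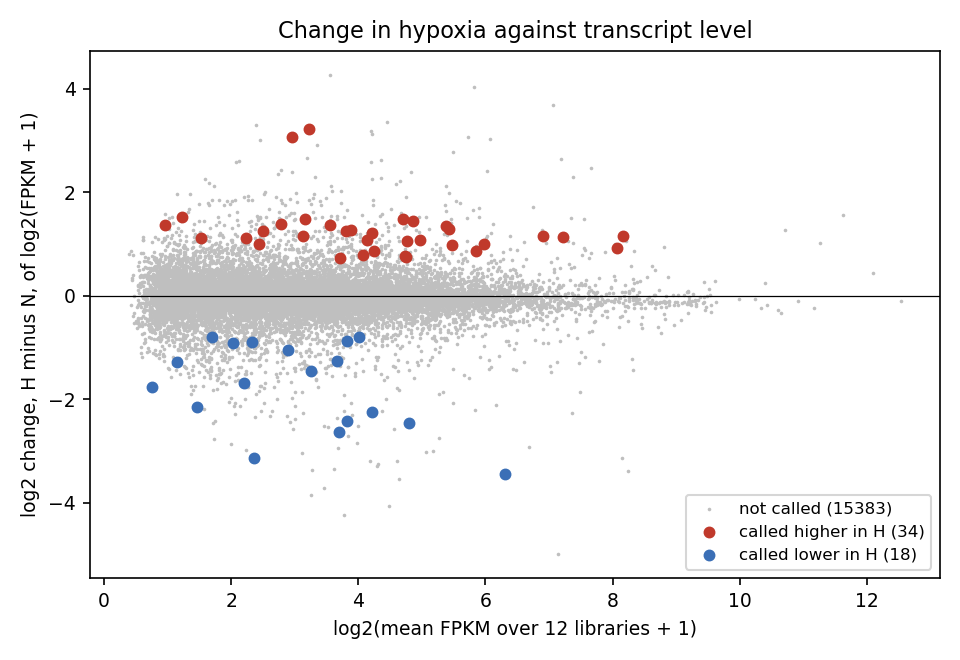
Change of each of 15435 transcripts, H minus N on the log2(FPKM + 1) scale (y axis), against its mean level over the 12 libraries as log2(mean FPKM + 1) (x axis). The 34 transcripts called higher in H (red) reach the highest levels among the calls, and the 18 called lower (blue) include larger changes. Grey points are transcripts that did not pass the test, some of them with changes beyond 4 in either direction.

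The 4 transcripts given by identifier were selected as those that kept their call under the most of 15 alternative settings, with the larger change deciding between equals. All 4 kept it under all 15. So did 1 further transcript, which fell.

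ENSRNOT00000052288 rose from near absence. It stood at 0.212, 0.309 and 0.604 FPKM in the N libraries and at 10.1, 8.68 and 13.1 FPKM in the H libraries. All H libraries lay more than 8 FPKM above every N library. The ratio of the mean levels was 28.3, and limma gave a log2 change of 3.07 ± 0.25 (SE; adjusted p = 0.00125). On the log2(FPKM + 1) scale the change of such a low transcript is understated, and with a pseudocount of 0.1 it was 4.56.

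ENSRNOT00000034708 rose about 3-fold with little spread. Its values were 3.28, 3.83 and 3.68 FPKM in N and 10.3, 11.7 and 11.3 FPKM in H. The SD was 0.286 FPKM in N and 0.740 in H, against a difference of the means of more than 7 FPKM. In limma its log2 change was 1.39 ± 0.12 (adjusted p = 0.00205).

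ENSRNOT00000024781 had the smallest p of the comparison. It stood at 43.4, 49.3 and 44.3 FPKM in N and at 8.15, 9.98 and 8.42 FPKM in H. Levels in N were 5.16 times those in H, and every library stayed close to the mean of its group. The log2 change was -2.25 ± 0.13, with a 95% interval from -2.53 to -1.96 and an adjusted p of 0.000115 in limma. Over the 15 alternatives the adjusted p stayed between 6.19e-05 and 0.00769.

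ENSRNOT00000071573 fell further but with more spread in N. Its values were 64.0, 38.5 and 63.8 FPKM in N and 7.70, 7.53 and 12.3 FPKM in H. N replicate 2 was the lowest N library and still lay more than 3-fold above the highest H library. In limma its log2 change was -2.46 ± 0.30 (adjusted p = 0.00933), and the highest adjusted p over the alternatives, 0.0455, came from fitting H and N without the other groups.

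**Figure D3:**
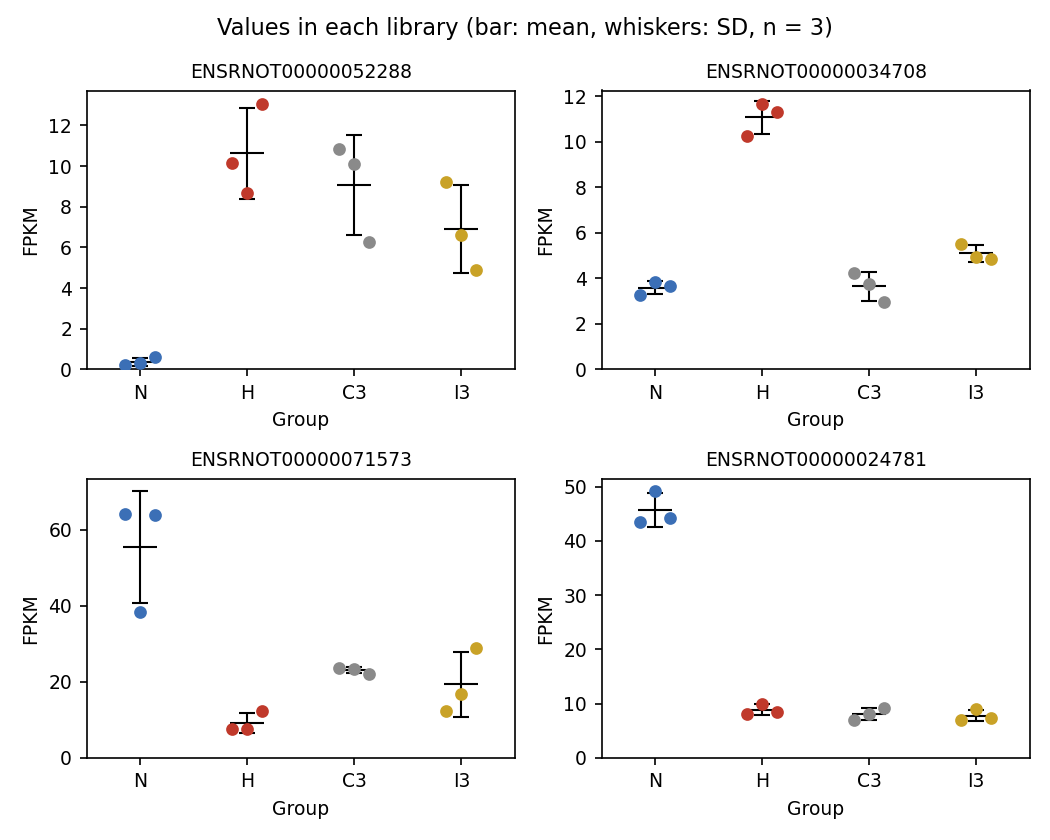
FPKM (y axis) of the 4 named transcripts in each of the 12 libraries, by group (x axis), with the group mean as a bar and whiskers of 1 SD (n = 3). The H points lie above all N points in the upper panels and below all N points in the lower panels. In the upper right panel the C3 points (2.97 to 4.24 FPKM) lie around those of N, and in the lower right panel the C3 and I3 points (6.97 to 9.18 FPKM) lie around those of H.

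Calls were found at every level. Of 493 transcripts with a mean of 100 FPKM or more over all libraries, 4 were called and all 4 were higher in H, but each kept its call under only 7 or 8 of the 15 alternatives. The most abundant of them in H stood at 150, 203 and 142 FPKM in N and at 337, 377 and 377 FPKM in H, which limma put at a log2 change of 1.15 ± 0.17 (adjusted p = 0.0231). The next stood at 165, 151 and 157 FPKM in N and 268, 307 and 332 FPKM in H, a change of 0.93 ± 0.13 (adjusted p = 0.0194 in limma). In both, every H library exceeded every N library by more than 100 FPKM. Between 20 and 100 FPKM, 11 of 2863 transcripts were higher and 2 were lower, and between 5 and 20 FPKM, 13 of 6058 were higher and 8 were lower. Between 1 and 5 FPKM, 5 of 5209 were higher and 7 were lower, and below 1 FPKM 1 of 812 was called in each direction. These bins use a mean to which 9 hypoxic libraries contribute, so a rise itself lifts a transcript into a higher bin. Binned by the mean in N alone, a choice made after seeing the data, 5 were higher and 7 lower between 20 and 100 FPKM, and 2 were higher and 0 lower at 100 FPKM or more. Binned by the midpoint of H and N on the log2 scale, the counts were 11 and 3, and 4 and 0. The balance of directions at a given level thus depended on how level was defined. With bins over all libraries the share called was 0.811% at 100 FPKM or more and 0.230% between 1 and 5 FPKM. Over all transcripts tested it was 0.337%. The 2 bin shares rest on 4 and 12 calls, and their difference was not tested. The median SE of the change was 0.16 on the log2 scale in the upper bin and 0.25 in the lower, so changes of low transcripts were measured less precisely.

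Of the 14 transcripts with a mean of 1000 FPKM or more, 0 passed in limma (lowest adjusted p = 0.370). An unadjusted p below 0.05 was seen for 2 of them, against 10.4% of all transcripts tested. As 0.337% of all transcripts tested were called, 0 of 14 does not set the most abundant ones apart. The most abundant of all stood at 7071, 5522 and 6462 FPKM in N and 6260, 6722 and 4889 FPKM in H, a log2 change of -0.10 with a 95% interval from -0.46 to 0.26. For 3 of the 14 the mean change exceeded 1, with a wide spread in N. The third most abundant stood at 3253, 514 and 1566 FPKM in N and at 3237, 4120 and 5116 FPKM in H, with a log2 change of 1.57 ± 0.58 (adjusted p = 0.370 in limma). N replicate 1 lay within reach of the H libraries there, whereas N replicate 2 lay far below all others.

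Large changes that did not pass were far more numerous than the calls. A change above 1 in either direction was seen for 727 transcripts, 4.71% of those tested, of which 344 were higher and 383 lower in H. Of these 39 were called and 688 were not, and 305 of those not called had no overlap between the groups. Over all transcripts tested the share without overlap was 15.1%. The 688 were chosen by a large change in the same libraries, which itself makes overlap less likely. The largest rise without a call went from 2e-06, 1.06 and 1.54 FPKM in N to 35.6, 27.8 and 34.4 FPKM in H, a log2 change of 4.27 ± 0.77 (adjusted p = 0.0559 in limma). All H libraries were high, and the C3 libraries held 1.71, 20.5 and 0.749 FPKM. The estimate of the spread is shared by all groups, and why this rise did not pass was not tested. The largest fall without a call went from 220, 189 and 205 FPKM in N to 178, 0.241 and 0.223 FPKM in H, with an adjusted p of 0.451. This transcript was high in 1 H library and nearly absent in the others, and C3 replicate 2 showed the same near absence at 0.138 FPKM.

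Some transcripts were listed at 0 in every library of 1 group only. In all 3 H libraries 4 transcripts stood at 0 that were at 1 FPKM or more in every N library, and the reverse held for 3. A 0 in a table of estimated abundances can be a failed estimate, so these are given as values. The clearest pattern was 13.4, 14.2 and 12.6 FPKM in N against 0 in each H library, which did not pass (adjusted p = 0.0856 in limma). Its C3 libraries ranged from 0 to 12.3 FPKM and its I3 libraries from 12.1 to 13.1 FPKM. Of the 7 transcripts 1 was called, at 3.34, 1.59 and 2.45 FPKM in N and 0 in H (adjusted p = 0.0314 in limma), and it kept its call under only 5 of the 15 alternatives. Over all transcripts tested 0.337% were called, but the 7 were picked for separation of the groups, which itself makes a call more likely. Zeros also appeared inside groups, where 198 transcripts were listed at 0 in 1 N library and at 1 FPKM or more in the other two, and 160 were so in H.

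At an unadjusted p below 0.05, 1598 transcripts differed, 10.4% of those tested, where 771.75 would by chance. Of these 704 were higher (4.56%) and 894 lower (5.79%) in H, whereas of the calls 34 were higher and 18 lower. Neither balance was stable. That of the calls was 17 higher and 25 lower when H and N were fitted alone, and 29 of each without N replicate 1. At an unadjusted p below 0.05, after median ratio scaling the balance was 817 higher and 765 lower, and after scaling to equal sums 783 higher and 770 lower. The median change of all transcripts was -0.02 without scaling and 0.00 with either.

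The median absolute change was 0.18 on the log2 scale, and the 5th and 95th percentiles of the change were -0.70 and 0.68. The 95% interval of the change had a median half-width of 0.46 and lay wholly within 1 of no change for 10844 transcripts, 70.3% of those tested. That share was 76.1% between 5 and 20 FPKM, 62.2% between 1 and 5 FPKM and 47.5% below 1 FPKM. The log2(FPKM + 1) scale understates ratios at low FPKM, so in the lower bins such an interval can hold larger ratios. The interval lay wholly within 0.8 of no change for 59.4% of transcripts and within 0.5 for 31.2%.

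The called transcripts were also read in the reoxygenated groups. These comparisons share the N libraries, and the transcripts were chosen by H and N, so the values are given side by side without a test. Over the 34 that rose, the median difference from N was 1.15 in H, 1.06 in C3 and 0.83 in I3 on the log2 scale. Over the 18 that fell it was -1.57 in H, -1.12 in C3 and -1.05 in I3. Over all transcripts tested these medians were -0.02, -0.04 and -0.02. Single transcripts departed from these medians. ENSRNOT00000024781 was at 8.85 ± 0.984 FPKM in H, 8.07 ± 1.08 in C3 and 7.79 ± 1.05 in I3 (SD, n = 3). ENSRNOT00000071573 was at 9.18 ± 2.71 FPKM in H, 23.1 ± 0.841 in C3 and 19.3 ± 8.60 in I3, between H and N. ENSRNOT00000034708 differed from N by 0.01 on the log2 scale in C3 and by 0.41 in I3, against 1.39 in H, and ENSRNOT00000052288 by 2.85 and 2.49, against 3.07 in H.

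**Figure D4:**
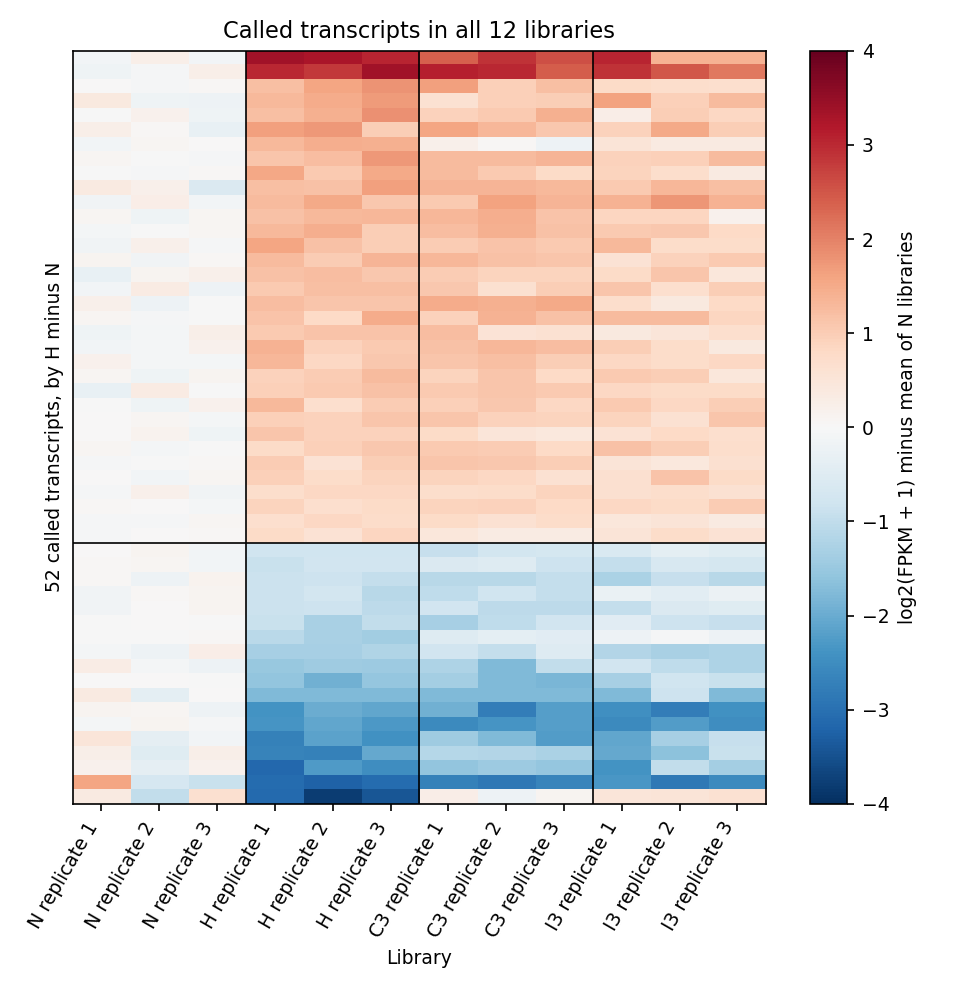
The 52 called transcripts (rows, ordered by H minus N) in the 12 libraries (columns), coloured by log2(FPKM + 1) minus the mean of the N libraries. H columns are red for the 34 transcripts that rose and blue for the 18 that fell, by the choice of transcripts. Most rows keep that colour in C3 and I3, with medians of 1.06 and 0.83 in the upper block and of -1.12 and -1.05 in the lower block.

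The number and identity of the calls depended on single libraries. Without H replicate 3, 17 transcripts were called, of which 16 were among the 52. Without N replicate 1 there were 58, of which 31 were among the 52, and they divided into 29 higher and 29 lower. Without N replicate 2, N replicate 3, H replicate 1 and H replicate 2 the counts were 32, 36, 38 and 34, of which 27, 24, 25 and 28 were among the 52. When H and N were fitted without C3 and I3, 42 were called, 17 higher and 25 lower, and 14 of these were among the 52. With 1 H or N library left out, the log2 change of a called transcript was between 0.748 and 1.16 times its value with all libraries. For 50 of the 52 it stayed between 0.8 and 1.2 times that value under each of these fits. The 52 were chosen in these same libraries for a change large against its spread, so such stability follows in part from the choice.

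**Figure D5:**
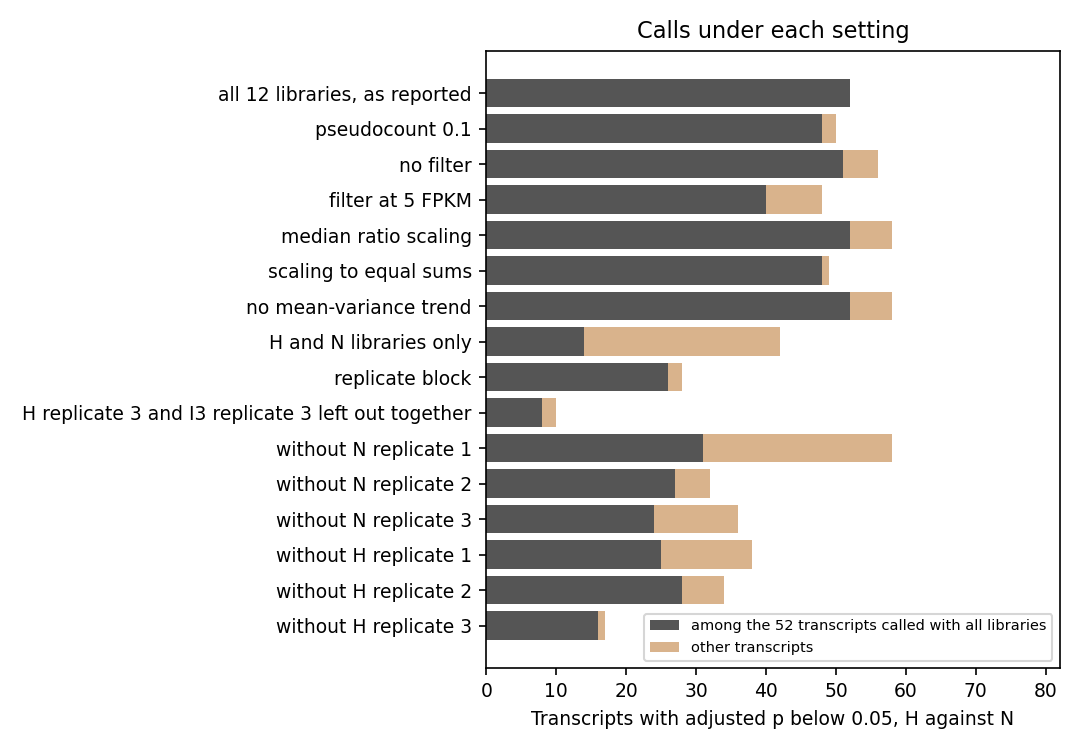
Number of transcripts with an adjusted p below 0.05 for H against N (x axis) with all libraries and under each of 15 alternatives (y axis). Dark bars count transcripts among the 52 called with all libraries, and light bars count others. The dark part falls to 14 with the H and N libraries only and to 16 without H replicate 3, and the lowest is 8 with H replicate 3 and I3 replicate 3 left out together.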

How the data were processed

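Per the labels' protocols, total lung RNA was fragmented, copied with random primers and given a dUTP second strand. The submitters' processing notes name cutadapt, HISAT2 2.0.5 and StringTie, which estimates transcript abundance, without settings. They also name hg19, a human build, so the rat build is not given in the sources. The authors deposited 1 table without a stated unit, taken as FPKM because StringTie is named; TPM of a filtered list would look alike. Library sums were 323894 to 361337. Depth is unknown, because whole reads could not be recovered: values reached 1e-06, and at most 4.90% of ratios of low values fell in 1 bin of 0.02 (log2) over 15 library pairs. StringTie divides reads among the transcripts of a gene by estimation, so a transcript can change without its gene.

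Transcripts at 1 FPKM or more in at least 3 of 12 libraries were kept (15435, with 1819 left out). Limma 3.58.1 in R 4.3.3 was fitted to log2(FPKM + 1) with 1 mean per group over all 12 libraries, 8 residual degrees of freedom and a mean-variance trend. P-values were two-sided and adjusted by the Benjamini-Hochberg method. The fit was tested on simulated data with independent normal spread and no outlying libraries, which checks the code and not the calls made here. Library measures used exact permutation tests (scipy 1.17.1). The named transcripts, at most 2 in each direction, were those called under the most alternatives, ties going to the larger change. The groups, tests, alternatives and this rule were chosen with earlier results of these data known. Gene lists and gene sums needed gene names and were not run.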

Additional observations from a re-analysis of the deposited data

How the results depend on the processing

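With another pseudocount (0.1), a filter at 5 FPKM or none, either scaling, or no mean-variance trend, the count of 52 calls lay between 48 and 58, and between 40 and 52 of the 52 transcripts were called again. Fitting H and N only gave 17 higher instead of 34. With H replicate 3 and I3 replicate 3 left out together, because earlier results of these data had set them apart, 10 were called, 6 higher and 4 lower. With 1 H or N library left out, the count ranged from 17 to 58, with 11 to 29 higher and 6 to 29 lower. For each of these counts the cause was not tested. No label links libraries of different groups by number, and the deviations of libraries with the same number correlated between -0.04 and 0.13 (18 pairs). The highest was that of H replicate 3 with I3 replicate 3, and the next was 0.07. The numbers were therefore not used as pairs in the main fit. With the replicate block 28 were called, 20 higher and 8 lower, 26 of them among the 52. The 4 named transcripts were chosen for keeping their call under the most alternatives, and they kept call and direction under all 15. Of the 52 called transcripts 5 were called under all alternatives, and the median was 8 alternatives. Between 20 and 100 FPKM, where 11 calls were higher and 2 lower by the mean over all libraries, 5 were higher and 7 lower by the mean in N, and 11 and 3 by the midpoint of H and N; these bins were chosen after seeing the data. The share of transcripts without overlap between H and N was 14.9% to 15.1% under both filters and both scalings. With 1 library left out, the difference in the share held by the 100 most abundant transcripts ranged from 0.00504 to 0.945 percentage points, and that in transcripts listed at 0 from -61.2 to -36.2. Precision rests on 3 libraries per group with the spread estimated over all 12 libraries, and depth is unknown.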
